A study of Rattus norvegicus with 13 samples.

Results

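The comparison described here set the livers of time-mated rats that received ethanol on a restricted energy supply against those of rats on a full control diet. It takes 7 of the 13 arrays of the series, those titled EtOH-160 (4 arrays) and those titled TEN-220 (3 arrays), and covers 5244 probe sets. All rats were female Sprague Dawley rats. TEN-220 rats were given 220 kcal a day for each kg of metabolic body weight (kg raised to the power 3/4), with no ethanol. EtOH-160 rats were given 160 kcal on the same basis together with 12 g of ethanol a day for each kg. Both the ethanol and the lower energy supply therefore differ between the groups, and their parts in a change cannot be told apart from these 7 arrays. An ethanol group on the full energy supply, EtOH-220 (3 arrays, 220 kcal and 12 g ethanol), entered the fit and its levels are given beside the others. Of the energy supply and the ethanol, only the ethanol differs between EtOH-220 and TEN-220. Other parts of the diets were not compared. The arrays of TEN-160, the undernourished group without ethanol, enter none of the values given here except 1 alternative count in the closing section. The age of the rats, the day of gestation, the time of day at which livers were taken and whether an array holds RNA of 1 rat or of a pool are not given in the sources used here, so a p-value here reflects the spread among these arrays and nothing more.

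The liver meets a shortage of food by breaking down amino acids, passing their nitrogen to the urea cycle and building glucose from the remaining carbon. Fatty acid synthesis and fat storage fall in the fasted liver, and insulin, glucagon and glucocorticoids set much of this programme. Ethanol is oxidised in hepatocytes by alcohol dehydrogenase to acetaldehyde and by aldehyde dehydrogenase to acetate, and the cytochrome P450 enzyme CYP2E1 takes a share of the ethanol at high intake.

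Among the genes called higher in EtOH-160 were Sds and Got1 of amino acid breakdown, Asl, Ass1 and Arg1 of the urea cycle, Fbp1 and Slc37a4 of glucose production, Bhmt, Gnmt and Cth of methionine metabolism, the clock gene Nr1d1 and the cytochrome P450 genes Cyp3a23-3a1 and Cyp4a1. Among those called lower were the lipid droplet genes Pnpla3, Plin2 and G0s2, the chaperones Hyou1, Hspa5, Hsph1 and Hsp90ab1, the actin and tubulin genes Actb, Actg1 and Tuba1b and the alcohol dehydrogenase gene Adh1c. At an adjusted p below 0.05 in the moderated test of limma, 118 of 5244 probe sets were called, 2.25% of those tested, of which 71 were higher (1.35%) and 47 lower (0.896%). In all 118 the 3 and 4 arrays did not overlap, beside 881 probe sets without overlap over the whole array (16.8% of those tested, 7.80% higher). At an unadjusted p below 0.05 there were 802 probe sets. The called changes had a median size of 1.10 on the log2 scale, and 67 exceeded 2-fold, 43 of them higher and 24 lower. Those that name 1 gene numbered 94 and stood for 76 different genes. The median change over all probe sets was -0.02, so a change of 0 stands close to the middle of all probe sets. Quantile normalization gives every array the same distribution, so a median near 0 largely follows from the method.

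**Figure D1:**
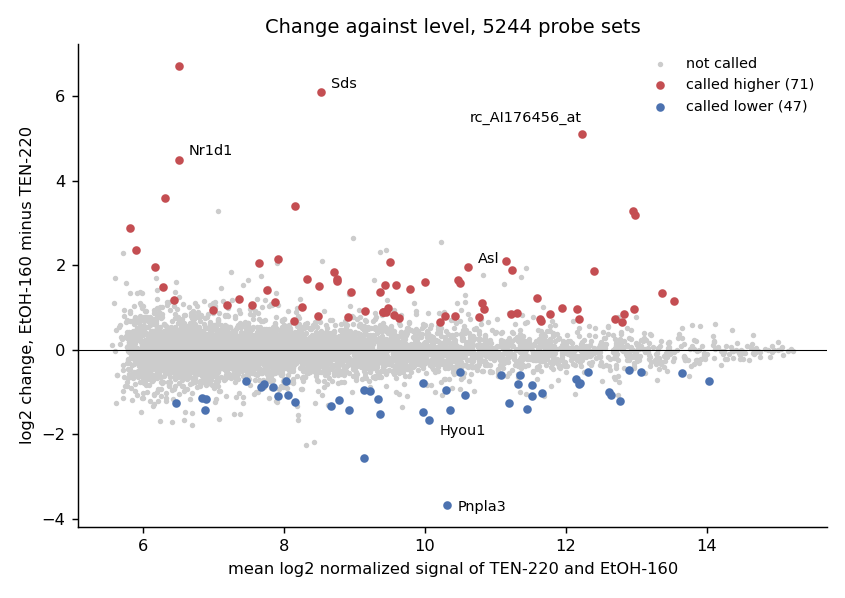
Change against level for the 5244 probe sets tested. Each point is a probe set, with the mean log2 normalized signal of both groups on the x axis and the log2 change of EtOH-160 minus TEN-220 on the y axis; the 71 called higher are red and the 47 called lower blue, and Pnpla3 is the lowest point at -3.67. The height of the 6 called points with 1 group below the background is a fitted difference and not a measured size.

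Signs of RNA quality overlapped between the groups compared through TEN-220 replicate 3 alone. The trimmed mean of the deposited signal was 501 on every array except TEN-220 replicate 1, where it was 133, and quantile normalization put that array on the common scale. The GAPDH 3'/5' ratio, which rises as RNA degrades, was 2.02, 2.32 and 1.52 on the TEN-220 arrays against 1.505 to 1.73 on the EtOH-160 arrays. On the EtOH-220 arrays it was lower, at 1.04 to 1.47. The beta-actin 3'/5' ratio was 3.00, 2.80 and 1.97 in TEN-220, 1.77 to 2.31 in EtOH-160 and 1.93 to 2.18 in EtOH-220. The part of RNA quality in the changes was not tested. On the first principal component of the 10 arrays (23.1% of the variance) the TEN-220 arrays lay at -13.6 to -12.2 and EtOH-160 replicates 2 to 4 at 19.2 to 20.1, whereas EtOH-160 replicate 1 lay at 8.90. EtOH-220 replicate 1 stood apart on the second component, at -35.7. Without EtOH-160 replicate 1 the count of calls was 126, without TEN-220 replicate 1 it was 50 and without EtOH-220 replicate 1 it was 165. Defining hepatocyte markers were bright in both groups, with albumin at 33635 to 37655 on all 7 arrays.

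The most strongly raised gene was Sds, which encodes serine dehydratase, the enzyme that turns serine into pyruvate and ammonia. Its signal at the probe set J03863_at was 37.5, 24.2 and 96.2 on the TEN-220 arrays and 731, 4596, 5946 and 4261 on the EtOH-160 arrays. Every EtOH-160 array lay above every TEN-220 array, and EtOH-160 replicate 1 was the lowest of its group. The change was 6.10 on the log2 scale (SE 0.672, adjusted p = 0.00119). The background, estimated from probe sets for sequences that rat RNA lacks, was a signal of 39.5, and TEN-220 replicates 1 and 2 lay below it here, so the size of this change is uncertain. EtOH-220 lay between at this probe set, at 179, 319 and 134. Both further Sds probe sets were called as well. X13119cds_s_at was at least 23.8-fold higher, as its TEN-220 signal lay below the background, and J03865mRNA_f_at had a change of 3.41. At both, EtOH-220 overlapped TEN-220, with changes of 0.13 and 0.30.

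Of 8 genes of the urea cycle and ammonia metabolism tested, 3 were called higher and none lower, each gene read by its brightest probe set. Over all 3121 genes read that way, 1.15% were called higher, 0.865% lower and 2.02% either way, and 7.43% were higher and 9.48% lower without overlap of the groups. Asl, argininosuccinate lyase, measured 736, 824 and 822 in TEN-220 and 2275, 3311, 4118 and 2877 in EtOH-160. Its groups lay far apart, with EtOH-220 at 1068, 1268 and 1423, and the change was 1.96 (SE 0.192, adjusted p = 0.00106). Ass1, argininosuccinate synthase, which makes the substrate of that enzyme, had a change of 1.34 (adjusted p = 0.0427) and reached 21334 on EtOH-160 replicate 3 against at most 10438 in TEN-220. Arg1, the arginase that releases urea, rose from 4495 to 5720 in TEN-220 to 7553 to 10396 in EtOH-160, a change of 0.73 (adjusted p = 0.0293). For ornithine transcarbamylase, Otc, the probe set K03041mRNA_s_at was called at 0.88 (adjusted p = 0.0126), whereas its brightest probe set changed by 0.58 and was not. Cps1, carbamoyl phosphate synthetase, which admits ammonia to the cycle, had a change of 0.19, and Glul, glutamine synthetase, one of -0.42; neither was called. The median of the 8 members was 0.65, beside -0.02 over all genes.

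Among 23 genes of amino acid catabolism, 2 were called higher, Sds and Got1, and none lower, with 18 changes above 0 and a median of 0.20. Got1, the cytosolic aspartate aminotransferase that moves amino groups between glutamate and aspartate, measured 808, 605 and 417 in TEN-220 and 998, 2125, 2777 and 1758 in EtOH-160. The groups did not overlap, although EtOH-160 replicate 1 lay close to the highest TEN-220 array, and the change was 1.61 (SE 0.323, adjusted p = 0.031). EtOH-220, at 549 to 816, overlapped the TEN-220 arrays. Gpt, alanine aminotransferase, had a change of 1.10 (adjusted p = 0.0711) and Tat, tyrosine aminotransferase, one of 0.51 (adjusted p = 0.329), and neither was called. Of the 9 called probe sets of these nitrogen genes, those of Asl and Sds J03863_at stayed called whichever array was left out. Sds X13119cds_s_at stayed called without each TEN-220 or EtOH-220 array, and was too dim to be tested without each EtOH-160 array. The other 5 lost their call without 1 or more of the arrays, EtOH-220 replicate 1 excepted, with an adjusted p of up to 0.121.

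**Figure D2:**
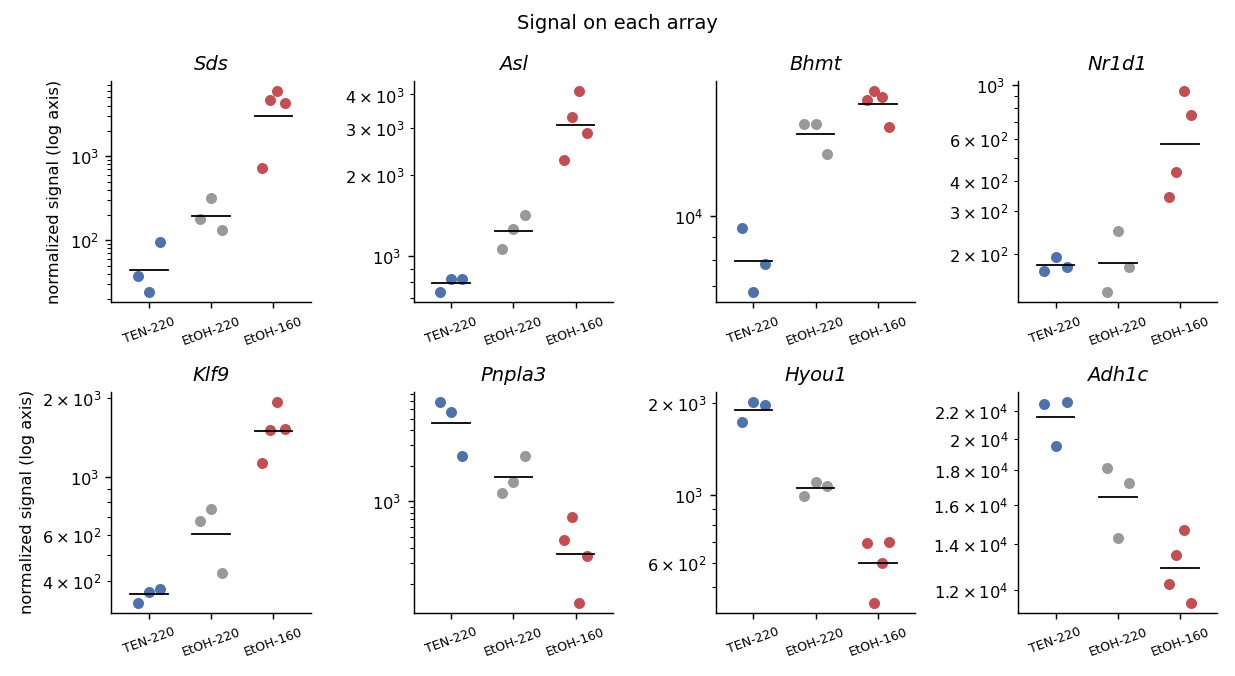
Normalized signal (log axis) of 8 genes on each array of TEN-220 (blue), EtOH-220 (grey) and EtOH-160 (red), with the geometric mean of each group as a bar. Each panel shows 1 probe set, M25804_g_at for Nr1d1 and M15327_at for Adh1c; the TEN-220 and EtOH-160 points do not overlap in any panel.

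Of 20 genes of gluconeogenesis and fasting, 3 were called higher, none lower, and the median change was 0.16. Fbp1, fructose-1,6-bisphosphatase, a committed enzyme of gluconeogenesis, rose from 5628, 5396 and 6120 in TEN-220 to 9264, 11489, 13381 and 10867 in EtOH-160, with a change of 0.97 (SE 0.148, adjusted p = 0.0082). All 4 EtOH-160 arrays lay clear of the 3 TEN-220 arrays. Slc37a4, the transporter that brings glucose 6-phosphate into the endoplasmic reticulum for the last step of glucose release, rose by 0.97 and 0.85 at its probe sets. EtOH-220 stood close to TEN-220 for that transporter, with changes of -0.04 and -0.00. Aqp9, the channel that lets hepatocytes take up glycerol, had a change of 0.83 (adjusted p = 0.0208).

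Pck1, phosphoenolpyruvate carboxykinase, the gene most often read as a sign of gluconeogenesis, was not called. It measured 200, 444 and 1363 in TEN-220 and 1346, 2717, 4643 and 4142 in EtOH-160, a change of 2.55 (SE 0.626, adjusted p = 0.0609). TEN-220 replicate 3 lay above the lowest EtOH-160 array, so the groups overlapped. Igfbp1, an insulin-repressed binding protein for insulin-like growth factors, had a change of 2.11 (adjusted p = 0.0969), with 83.0 to 283 in TEN-220 against 406 to 1085 in EtOH-160 and no overlap. Igfbp2, a related binding protein, was called at the probe set A09811cds_s_at, at least 7.01-fold higher. The other Igfbp2 probe sets, with changes of 2.04 and 1.18, were not called. Igf1 itself had a change of 0.09 and Ghr, the growth hormone receptor, one of -0.25, neither called. Of the 4 called probe sets of Fbp1, Slc37a4 and Aqp9, that of Fbp1 stayed called without any 1 array. The others lost their call without TEN-220 or EtOH-160 arrays or EtOH-220 replicate 2, EtOH-160 replicate 1 excepted, with an adjusted p of up to 0.142. Igfbp2 lost its call without TEN-220 replicate 3 (adjusted p = 0.0551). Its called probe set was too dim to be tested without EtOH-160 replicate 1, 3 or 4.

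Methionine metabolism supplies methyl groups through S-adenosylmethionine and disposes of homocysteine. Of its 16 genes tested, 3 were called higher and none lower, 13 changes lay above 0, and the median was 0.32. Bhmt, which remethylates homocysteine with betaine, measured 9419, 6778 and 7811 in TEN-220 and 18108, 18911, 18317 and 15740 in EtOH-160. The change was 1.16 (SE 0.127, adjusted p = 0.00119), and EtOH-220, at 13724 to 16021, lay nearer EtOH-160 than TEN-220. Gnmt, glycine N-methyltransferase, which uses up S-adenosylmethionine, had changes of 1.42 and 1.21 at its called probe sets, with changes of 0.31 and 0.14 in EtOH-220. Cth, cystathionine gamma-lyase, which makes cysteine, rose by 0.98 (adjusted p = 0.0463), with a change of 1.14 in EtOH-220. Mat1a, which makes S-adenosylmethionine in the liver, had a change of 0.90 and was not called (adjusted p = 0.234). The call of Bhmt stood without each array in turn, and those of Gnmt were lost without single TEN-220 or EtOH-160 arrays. Those of Cth were lost without single arrays of all 3 groups, EtOH-220 replicate 1 excepted, with an adjusted p of up to 0.188.

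Nr1d1, which encodes the nuclear receptor REV-ERB alpha, a repressor in the circadian clock, was among the strongest changes. At the probe set M25804_at its signal was 28.9, 11.04 and 22.1 in TEN-220 and 173, 384, 786 and 669 in EtOH-160. All TEN-220 signals lay below the background, so the difference is given as at least 10.9-fold (adjusted p = 0.00146). At the brighter probe set M25804_g_at TEN-220 measured 170 to 195 and EtOH-160 344 to 943, a change of 1.66 (SE 0.323, adjusted p = 0.0275). EtOH-220 overlapped TEN-220 there, with a change of 0.02, and lay below the background at M25804_at. Klf9, a transcription factor induced by glucocorticoids, rose from 329, 363 and 372 to 1131, 1514, 1935 and 1518, a change of 2.08 (SE 0.221, adjusted p = 0.00119), with EtOH-220 at 429 to 755 between.

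Of 7 clock genes tested, only Nr1d1 was called. Dbp, a clock output gene of the PAR bZIP family, measured 41.3, 78.3 and 25.04 in TEN-220 and 38.3, 743, 1133 and 940 in EtOH-160. Replicates 2 to 4 were high and EtOH-160 replicate 1 lay within the TEN-220 range, so the groups overlapped and the change of 3.27 was not called (adjusted p = 0.112). Bmal1, the clock activator that REV-ERB alpha represses, measured 148 to 170 in TEN-220 against 115, 55.8, 30.8 and 57.2 in EtOH-160 at AF015953_at. Its groups did not overlap there, yet the change of -1.48 was not called (adjusted p = 0.0862). At the brighter AB012600_s_at the groups overlapped, with 237 to 329 in TEN-220 and 256, 160, 15.7 and 145 in EtOH-160, a change of -1.52 (adjusted p = 0.351). The calls of both Klf9 probe sets stood without each array in turn. That of Nr1d1 M25804_at stood wherever it was tested, but it was too dim to be tested without EtOH-160 replicate 3 or 4. That of M25804_g_at was lost without any 1 of the TEN-220 arrays and without EtOH-160 replicate 3 or 4 (adjusted p up to 0.0924).

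The bases before the start of Nr1d1 are shown because clock activators bind the E-box CACGTG. RefSeq lists 2 starts on GRCr8, and the stretch before the second, chr10:84229455-84229704 on the minus strand, reads 5′ to 3′ with the E-box in capitals, at positions -191 to -186 from the start.
Nr1d1: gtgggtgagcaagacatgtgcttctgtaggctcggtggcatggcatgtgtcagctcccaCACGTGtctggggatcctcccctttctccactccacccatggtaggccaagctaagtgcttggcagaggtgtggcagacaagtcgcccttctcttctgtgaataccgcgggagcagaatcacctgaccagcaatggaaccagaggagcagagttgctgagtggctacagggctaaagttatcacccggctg
The same 6 letters stood in 5.59% of 33469 RefSeq stretches of 250 bases before a start, and in 5 of 35 genes called higher and 3 of 29 called lower that have one. A called gene was counted if any of its stretches held the motif, so the share of stretches and the counts of genes are unlike measures. The stretch before the other Nr1d1 start held none of the 5 motifs searched.

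The largest fall was that of Pnpla3, which encodes a lipid droplet protein that acts on triglycerides and is induced by feeding. Its signal was 6934, 5720 and 2405 in TEN-220 and 474, 731, 138 and 345 in EtOH-160. The groups lay apart, with EtOH-220 between at 1173, 1447 and 2396. The change was -3.67 (SE 0.515, adjusted p = 0.00456), or 12.8-fold lower. Plin2, which coats lipid droplets, fell by 1.07 (adjusted p = 0.0102), from 6867 to 11698 in TEN-220 to 3990 to 5084 in EtOH-160. G0s2, an inhibitor of the lipase that opens lipid droplets, fell by 1.26 (adjusted p = 0.0329), from 2526 to 4835 to 1152 to 2284. Fabp2, a fatty acid-binding protein best known from the gut, fell by 1.16 (adjusted p = 0.0329). Of 13 lipogenic genes only Pnpla3 was called. Srebf1, a regulator of lipogenesis, had a change of -0.33, Fasn, fatty acid synthase, one of -0.30, Scd, a desaturase, one of -0.19 and Acly, ATP citrate lyase, one of -0.64. Their adjusted p-values lay between 0.335 and 0.761. Fasn measured 4761 to 7081 in TEN-220, 1831 to 5852 in EtOH-220 and 3480 to 6398 in EtOH-160, so these groups overlapped.

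The stretch before the start of Pnpla3 is shown because it is the most strongly lowered gene and holds a cAMP response element (TGACGTCA, searched on both strands), a motif bound by factors of the fasting response. It lies at chr7:117173278-117173527 on the plus strand of GRCr8, with the motif in capitals at positions -58 to -51.
Pnpla3: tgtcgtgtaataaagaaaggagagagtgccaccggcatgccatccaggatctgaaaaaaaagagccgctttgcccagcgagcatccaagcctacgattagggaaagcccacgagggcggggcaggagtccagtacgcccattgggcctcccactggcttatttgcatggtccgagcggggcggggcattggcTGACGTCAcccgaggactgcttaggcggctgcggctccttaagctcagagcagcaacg
That motif stood in 1.59% of all such stretches, in none of the 35 genes called higher and in 2 of the 29 called lower, Pnpla3 and Hsp90ab1. Genes were again counted over all their stretches, so the share and the counts are unlike measures.

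Of 33 genes of fatty acid oxidation and targets of the nuclear receptor PPAR alpha, 2 were called higher (Cyp4a1 and Acadsb) and 1 lower (Plin2), with a median of 0.10. Cyp4a1, a fatty acid omega-hydroxylase, measured 1137, 1309 and 1259 in TEN-220 and 2370, 2804, 2389 and 3054 in EtOH-160 at X07259cds_s_at. The change was 1.10 (SE 0.144, adjusted p = 0.00296), and it was 0.96 and 0.88 at the other called probe sets. Acadsb, which oxidises branched and short acyl chains, rose by 1.05 (adjusted p = 0.0346), and EtOH-220 had a change of 1.14. Acsm2, a medium-chain acyl-CoA synthetase, rose by 1.68 (adjusted p = 0.0459) with a change of -0.00 in EtOH-220. Cpt1a, the gate of mitochondrial fatty acid entry, had a change of 0.75 (adjusted p = 0.268), with 787, 859, 2068 and 789 in EtOH-160 and 532 to 719 in TEN-220. No gene of 53 of oxidative phosphorylation was called, and the median was 0.06. The calls of Pnpla3, Plin2 and Cyp4a1 X07259cds_s_at stood without each array in turn, and the other 6 lipid calls were lost without 1 or more arrays of any group, with an adjusted p of up to 0.185.

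No enzyme of ethanol oxidation was called higher. Of 10 genes of this list 1 was called lower, Adh1c, the main hepatic alcohol dehydrogenase. It measured 22486, 19557 and 22684 in TEN-220, 18108, 14292 and 17227 in EtOH-220 and 12235, 13525, 14690 and 11489 in EtOH-160. Both ethanol groups lay below every TEN-220 array and overlapped each other, and the change of EtOH-160 was -0.74 (SE 0.122, adjusted p = 0.0119), or 1.67-fold lower. Its other probe set fell by 0.81. Cyp2e1 overlapped between the groups, with 25685, 22486 and 21455 in TEN-220 against 20676 to 23776 in EtOH-160, a change of -0.07 (SE 0.103, adjusted p = 0.807). Aldh2, the mitochondrial aldehyde dehydrogenase, had a change of -0.14 and Cat, catalase, one of 0.10, and neither was called. Hmox1, a heme oxygenase induced by oxidative stress, had changes of -0.42 (adjusted p = 0.329) and -0.78 (adjusted p = 0.183) at its probe sets, neither called. The groups did not overlap at the second, and EtOH-220 lay lower still, with changes of -1.37 and -2.01. None of 21 genes of oxidative stress defence was called. Of these, 14 had a change below 0, beside 52.8% of all genes. Without overlap 4 were lower and 1 higher, beside 9.48% and 7.43%.

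Other P450 genes changed. Of 24 genes of the CYP1 to CYP3 families, 1 was called higher and 1 lower, and the median was 0.28. Cyp3a23-3a1, an inducible drug- and steroid-metabolising enzyme, rose from 4031, 3080 and 1873 to 11042, 12161, 12161 and 6964 at X64401cds_s_at, a change of 1.86 (SE 0.306, adjusted p = 0.0119), and its further called probe sets rose by 1.88 and 1.52. EtOH-220 had a change of 1.22 at X64401cds_s_at. CYP3A genes are near-identical, so their probe sets may share signal. Cyp2b2, an enzyme induced by phenobarbital, had a change of 1.94 that was not called (adjusted p = 0.0886). Cyp2c22 fell by 1.21, from 9495 to 12444 to 3144 to 6046 (adjusted p = 0.0208). Fmo1, a flavin-containing monooxygenase, rose from 114, 110 and 76.1 to 329, 298, 845 and 342, a change of 2.06 (SE 0.322, adjusted p = 0.00901), with EtOH-220 at 276 to 315. Nat1, an N-acetyltransferase, fell by 0.89 (adjusted p = 0.0427). Of 21 genes of bile acid synthesis and transport 1 was called, Slc10a1, the carrier that takes bile acids up from the blood, with a rise of 0.69, while Cyp7a1, the rate-limiting enzyme of bile acid synthesis, had a change of 0.78 (adjusted p = 0.455). Of the 9 called probe sets of these enzymes and carriers, 3, those of Fmo1 and Cyp3a23-3a1 X64401cds_s_at and L24207_i_at, stayed called without each array. The other 6 were lost without 1 or more arrays, EtOH-220 replicate 1 excepted, with an adjusted p of up to 0.152.

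Several chaperone genes were called lower. Of 17 genes of endoplasmic reticulum stress, 2 were called lower and none higher, and 5 were lower without overlap of the groups, beside 9.48% of all genes. Hyou1, a large chaperone of the endoplasmic reticulum, measured 1735, 2018 and 1971 in TEN-220, 992, 1105 and 1073 in EtOH-220 and 697, 444, 600 and 700 in EtOH-160. The 3 groups formed steps without overlap, and the change was -1.67 (SE 0.172, adjusted p = 0.00119), with -0.39 at another probe set. Hspa5, the chaperone BiP, fell by 0.80 (SE 0.139, adjusted p = 0.0149), from 5549, 6426 and 6778 to 4002, 3495, 3480 and 3367. Pdia3, a protein disulfide isomerase, fell by 0.81 at rc_AA892637_at, while its brightest probe set had a change of -0.25 and was not called. Ddit3, the stress factor CHOP, had a change of -0.43 (adjusted p = 0.785), and Asns and Atf3, further targets of the stress response, had changes of 0.07 and 0.38. The list's median was -0.11.

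In the cytosol, 2 of 13 heat shock genes were called lower, 12 of 13 changes lay below 0 and the median was -0.41. Hsph1, a large cytosolic chaperone, fell from 624, 744 and 637 to 359, 435, 194 and 241, a change of -1.19 (SE 0.256, adjusted p = 0.0385). Hsp90ab1, the constitutive HSP90 of the cytosol, fell by 0.48, 0.52 and 0.70 at its called probe sets, and Fkbp4, an HSP90 cochaperone, fell by 1.52 (adjusted p = 0.0457). Cct3, a subunit of the chaperonin that folds actin and tubulin, fell from 690, 688 and 558 to 182, 265, 287 and 313, a change of -1.33 (SE 0.205, adjusted p = 0.00847). Further genes of the secretory route, singled out after their values were seen, were called lower as well. Uso1, a tether of vesicles at the Golgi, changed by -0.98, Lrrc59, a membrane protein of the endoplasmic reticulum, by -1.07 and -0.96 at its probe sets, Scfd1, a vesicle fusion factor, by -0.87 and Arf4, a GTPase of vesicle budding, by -0.52. Of the 14 called probe sets of these genes and of the endoplasmic reticulum, those of Hyou1 and Cct3 stayed called without each array. The other 12 were lost without 1 or more arrays, EtOH-220 replicate 1 excepted, with an adjusted p of up to 0.184.

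The stretches before Hspa5 and Hsph1 are shown because each holds the element of its stress response. For Hspa5, at chr3:38452766-38453015 on the plus strand of GRCr8, the capitals mark the ER stress element, CCAAT and CCACG with 9 bases between them, at positions -43 to -25. For Hsph1, at chr12:10427118-10427367 on the plus strand, they mark an E-box and, at positions -36 to -24, the heat shock element, GAA, TTC and GAA each set 2 bases apart, which lies on the opposite strand.
Hspa5: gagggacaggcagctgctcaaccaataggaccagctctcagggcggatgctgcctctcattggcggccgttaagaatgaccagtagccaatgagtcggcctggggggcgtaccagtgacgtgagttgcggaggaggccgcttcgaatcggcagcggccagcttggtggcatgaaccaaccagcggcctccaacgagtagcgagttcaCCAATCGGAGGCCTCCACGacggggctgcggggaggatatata
Hsph1: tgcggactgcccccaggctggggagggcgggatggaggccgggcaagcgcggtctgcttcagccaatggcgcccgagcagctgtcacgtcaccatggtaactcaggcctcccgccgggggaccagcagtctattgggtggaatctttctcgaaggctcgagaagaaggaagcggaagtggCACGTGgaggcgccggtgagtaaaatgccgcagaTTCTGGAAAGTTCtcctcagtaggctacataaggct
The ER stress element, searched on both strands, stood in 22 of 33469 stretches (0.0657%), and Hspa5 was the only called gene with it among the 35 higher and 29 lower genes that have a stretch. The heat shock element stood in 0.663% and in 1 called gene, Hsph1. The glucocorticoid response element, GNACA and TGTNC with 3 bases between them, stood in 0.374% and in no called gene. These percentages count stretches, whereas a called gene was counted over all its stretches. A match describes these letters and is not evidence of binding.

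**Figure D3:**
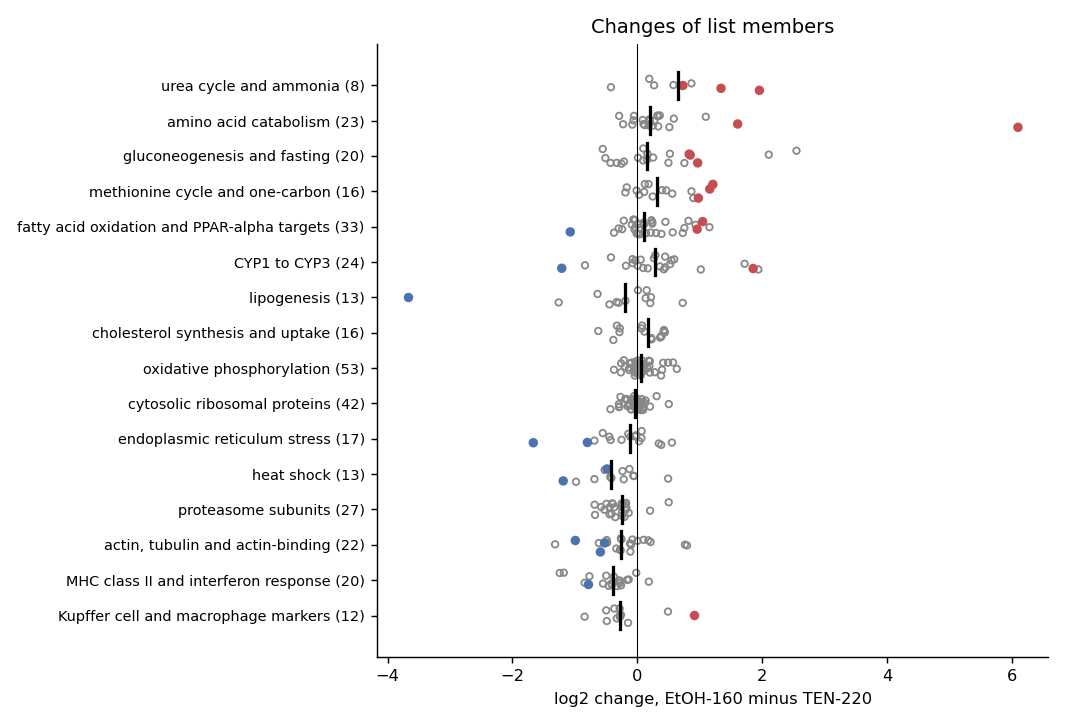
Log2 change (EtOH-160 minus TEN-220) of each tested member of 16 gene lists, with the number of members in brackets. Each gene is a point at its brightest probe set, filled red where called higher and blue where called lower, open where not called, and the bar is the list's median, from 0.65 for the urea cycle to -0.41 for heat shock.

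No gene of 27 of the proteasome, which degrades ubiquitin-tagged proteins, was called. Of these genes 25 had a change below 0 and 11 were lower without overlap, beside 9.48% of all genes, with a median of -0.25. Psmc2 and Psmc4, ATPases of its cap, had changes of -0.68 each, and Psmc3, another, one of 0.50. Of 42 cytosolic ribosomal protein genes none was called, and the median was -0.04.

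Of 22 genes of actin, tubulin and their partners, 3 were called lower, none higher, and the median was -0.26. Actb, beta-actin, measured 10002, 10779 and 9947 in TEN-220, 11205 to 12235 in EtOH-220 and 8265, 6333, 6909 and 7109 in EtOH-160. EtOH-220 lay above TEN-220 and EtOH-160 below it, and the change was -0.52 (SE 0.111, adjusted p = 0.0364). Actg1, gamma-actin, fell by 0.99, with a change of 0.36 in EtOH-220, and Tuba1b, an alpha-tubulin, fell by 0.59. Actin gene copies are near-identical, so their probe sets may share signal. On the values as deposited, where TEN-220 replicate 1 keeps its lower scale and the median of all changes is 0.62, the changes of Actb, Tuba1b, Arf4 and Hsp90ab1 (at its rc_AI236795_s_at and rc_AI007820_s_at probe sets) turned positive, at 0.06 to 0.13. All 3 cytoskeletal calls were lost without any 1 of the TEN-220 arrays and without EtOH-160 replicate 2, 3 or 4, and some also without EtOH-160 replicate 1 or the EtOH-220 replicates 2 and 3, each left out alone, with an adjusted p of up to 0.189.

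Of 20 genes of the interferon response and antigen presentation, 1 was called lower, none higher, and the median was -0.39. Of the 20, 19 changes lay below 0 and 7 were lower without overlap, beside 52.8% and 9.48% of all genes. Irf1, an interferon-induced transcription factor, fell from 1380, 1222 and 1366 to 882, 950, 607 and 683, a change of -0.78 (SE 0.169, adjusted p = 0.0385), and EtOH-220, at 864 to 919, lay near EtOH-160. Mx1, an antiviral GTPase, had a change of -1.18, Cd74, the invariant chain of MHC class II, one of -0.84 and Irf7, another interferon factor, one of -0.77, none of them called. Kupffer cells, the liver's macrophages, carry many of these genes. Of 12 Kupffer cell and macrophage markers 10 had a change below 0 and 5 were lower without overlap, against the same shares of all genes. Their summed signal was 11840 to 13260 on the TEN-220 arrays and 9224 to 11310 on the EtOH-160 arrays, and none of the 12 was called lower. Fewer cells of a type and less RNA per cell cannot be told apart in whole liver, and the part of these markers in the lower interferon genes was not tested.

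Cd14, the lipopolysaccharide co-receptor of macrophages and stressed hepatocytes, went the other way. It measured 575, 439 and 271 in TEN-220 and 1233, 1094, 1493 and 965 in EtOH-160 at AF087943_s_at, without overlap, a change of 1.53 (SE 0.253, adjusted p = 0.0119). At the brighter probe set the change was 0.90 (adjusted p = 0.0208). It was the only 1 of 22 acute phase genes called at its brightest probe set. Fga, the fibrinogen alpha chain, fell by 1.10 at rc_AA875097_at but had changes of -0.32 and -0.24 at its other probe sets. Lcn2, lipocalin 2, made by neutrophils and inflamed hepatocytes, measured 510, 310 and 2535 in TEN-220 against 89.5 to 255 in EtOH-160. Its groups did not overlap, and the change of -2.19 was not called (adjusted p = 0.0904). Lcn2 was the only neutrophil marker bright enough to be tested. The call of Cd14 at AF087943_s_at stood without each array in turn. The calls of Irf1, Fga and Cd14 at its brighter probe set were lost without TEN-220 replicate 2 or 3 and without EtOH-160 replicate 3 or 4, and that of Irf1 also without TEN-220 replicate 1, or the EtOH-220 replicates 2 and 3, with an adjusted p of up to 0.145.

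Markers of the periportal zone of the liver lobule held several of the genes that rose. Of 13 markers of periportal hepatocytes, the zone of urea and glucose production, 4 were called higher, Sds, Asl, Ass1 and Arg1, which also stand in the lists above, and the median was 0.73. Of the 13, 9 had a change above 0 and 4 below. Without overlap 6 were higher and 1 lower, beside 7.43% and 9.48% of all genes. None of 10 perivenous markers was called, and their summed signal was 43680 to 50060 in TEN-220 against 43670 to 48440 in EtOH-160. No call was made among 6 sinusoidal endothelial markers, 15 of stellate cells and matrix, 5 of bile duct cells, 7 of lymphocytes, 8 of blood and 6 of exocrine pancreas, each gene at its brightest probe set. In that order, 0, 10, 4, 4, 6 and 2 of them had a change below 0 and the rest above, beside 52.8% of all genes below 0. Decorin, Dcn, a matrix proteoglycan of stellate cells, was called at its dimmer probe set X59859_i_at, at least 3.87-fold higher, while the brightest had a change of 0.70. Exocrine pancreas markers had summed signals of 2282 to 6395 in TEN-220 against 2632 to 6666 in EtOH-160, which overlap.

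Further named genes had other roles. Emp1, an epithelial membrane protein, measured 30.6, 16.0 and 38.8 in TEN-220 and 145, 81.7, 186 and 154 in EtOH-160, at least 3.43-fold higher (adjusted p = 0.00644), with EtOH-220 at 143 to 159. Syngr1, a synaptogyrin, was at least 3.61-fold higher at U39549_g_at (adjusted p = 0.0208), while its other probe sets had changes of 0.47 and 0.10 that were not called. Inhbe, which encodes the hepatic activin subunit beta E, fell from 1626, 1696 and 1710 to 641, 714, 609 and 483, a change of -1.47 (SE 0.168, adjusted p = 0.00145), with EtOH-220 at 678 to 930. Tars1, threonyl-tRNA synthetase, fell by 1.42, Synj2, an inositol phosphatase, by 1.27, Kank2, a cytoskeletal adaptor, by 1.18 and Errfi1, a feedback inhibitor of the EGF receptor, by 1.14. The other Errfi1 probe sets had changes of -0.25 and -0.03. The calls of Emp1 and Inhbe stood without each array in turn, and those of Dcn, Syngr1, Tars1, Synj2, Kank2 and Errfi1 were lost without 1 or more arrays, EtOH-220 replicate 1 and EtOH-160 replicate 1 excepted, with an adjusted p of up to 0.15.

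The levels of EtOH-220 are given side by side with those of the other groups. Its differences from both were fitted in the same model, but the p-values of these differences are not given here. The probe sets were chosen for their change between EtOH-160 and TEN-220, and the change of EtOH-220 is taken from the same TEN-220 arrays, so no count of its positions is given. Slc37a4, Acsm2, Got1 and Gnmt stood near the TEN-220 level in EtOH-220, whereas Acadsb, Cth, Fmo1 and Bhmt stood close to the EtOH-160 level.

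**Figure D4:**
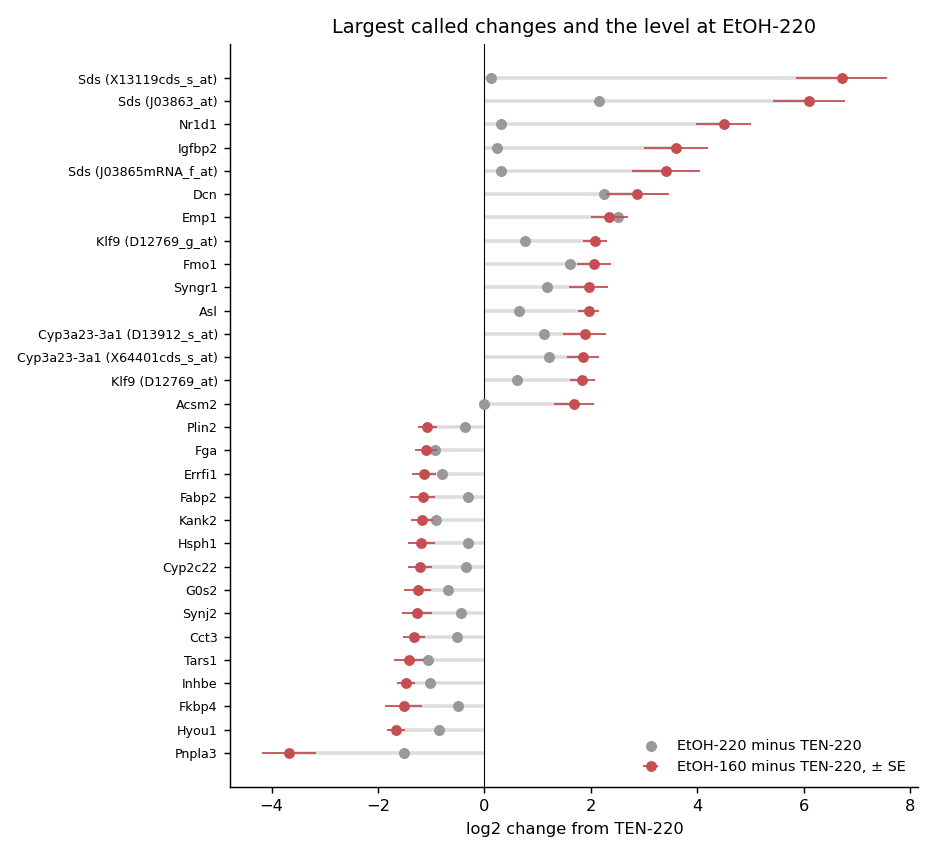
Largest called changes and the level at EtOH-220. For the 15 probe sets with the largest rises and the 15 with the largest falls that name 1 gene, red points give the log2 change of EtOH-160 minus TEN-220 with its SE and grey points that of EtOH-220 minus TEN-220; Hyou1 stands at -1.67 in EtOH-160 and -0.85 in EtOH-220. For Sds X13119cds_s_at, Nr1d1, Igfbp2, Dcn, Emp1 and Syngr1 the TEN-220 level lay below the background, so their points are fitted differences and not measured sizes.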

How the data were processed

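Hepatic RNA was measured on one-colour Affymetrix rat arrays. The deposited columns hold linear-scale intensity, computed by the authors with MAS5 per the submitters' processing notes (release not given in the sources). The 10 arrays of TEN-220, EtOH-220 and EtOH-160 were quantile normalized, floored at the 10th percentile (8.17) and taken to log2. Of 8799 probe sets, 59 controls and then the dimmest 40% of the other 8740 were left out, which left 5244. Of these, 4305 named 1 gene, 247 several and 692 none in the array's annotation, and 4293 were matched by Entrez ID. Groups were fitted with limma 3.58.1 (lmFit, eBayes with a trend, two-sided, Benjamini-Hochberg, called at adjusted p under 0.05) in R 4.3.3, with 7 residual degrees of freedom and a median SE of 0.224. Background, 39.5, was the 95th percentile over 19 spike-in probe sets absent from rat RNA; a bound on a fold sets a dimmer group at it. The number of arrays limits the precision.

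Changes are differences of mean log2 signal. Named genes are the 15 highest and 15 lowest called, non-overlapping probe sets naming 1 gene. Up to 4 called members of each list by smallest p, and a fixed panel, are named too. Some others are said to be chosen after their values were seen. Further list members fall outside this rule, and no rule was set for naming them. They are Cps1, Glul, Asns, Atf3, Psmc2, Psmc3, Psmc4, Mx1, Cd74, Irf7 and Lcn2. The members and gene lists were chosen with earlier results of these data known, and lists are described by counts and medians only. Promoter letters come from RefSeq on GRCr8. In simulated data for this comparison, with 200 of 5244 probe sets changed, 24%, 48%, 88% and 100% of 1.5-, 2-, 4- and 8-fold changes were recovered, with 6 false calls among 136. The simulated noise was independent for each probe set and array, with no deviation shared across an array. These rates need not hold for the calls made here. Same-numbered arrays of different groups did not deviate together more than others, which cannot tell whether the numbers pair the samples. Alternatives were other scalings, floors, filters, arrays in the fit, variance models, thresholds, array weights, a replicate block and leaving out each array. Python 3.11.15 and matplotlib 3.10.9 drew the plots.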

Additional observations from a re-analysis of the deposited data

Results flagged for a closer look

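In 7 of 95 EtOH-160 groups examined, 1 array stood far from the other 3, with its gap to the nearest divided by the range above Dixon's 95% critical value; chance gives about 1 in 20. EtOH-160 replicate 1 was low for Sds at J03863_at (731.5 against 4261 to 5946, ratio 0.841) and for Dbp (38.3 against 743 to 1133, ratio 0.875). EtOH-160 replicate 3 was high for Fmo1 (845 against 298 to 342, ratio 0.867) and for Cpt1a (2068 against 787 to 859, ratio 0.91). EtOH-160 replicate 4 was high for Cyp4a1 at rc_AA924267_s_at (1206 against 837 to 852, ratio 0.952) and low for Cat (2864 against 3184 to 3201, ratio 0.951). EtOH-160 replicate 1 was high for Lrrc59 at D13623_at (604 against 333 to 367, ratio 0.838). Ratios were taken on log2 signals.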

How the results depend on the processing

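Beside the 118 calls, trimmed-mean scaling gave 112 (107 shared with the 118), median centring 88 (86 shared), the 7 arrays alone 114 (88 shared) and all 13 arrays, TEN-160 included, 118 (101 shared). Counts moved by over 1.5 times elsewhere, given as all, higher and lower: 64, 62 and 2 on values as deposited (median of all changes 0.62); 32, 22 and 10 with no filter on dim probe sets; 48, 34 and 14 with no variance trend; 257, 130 and 127 with array weights; 215, 112 and 103 at an adjusted p under 0.1. With 1 array left out they were 42 to 165, 27 to 92 and 9 to 73. The lowest count came without TEN-220 replicate 2 and the highest without EtOH-220 replicate 1; counts were 50 and 46 without TEN-220 replicates 1 and 3, and 72, 45 and 50 without EtOH-160 replicates 2, 3 and 4. With the replicate block the counts were 42, 34 and 8, and 37 of the calls were shared. Correlations of same-numbered arrays ran from -0.112 to 0.0874 and those of differently numbered arrays from -0.149 to 0.189. With so few arrays these values cannot tell whether the numbers pair the samples. The cause of these moves was not tested. Calls kept their sign except on values as deposited, where 111 of 118 did. Of 70 named calls, 9 held under every setting in which they were tested, among them Sds, Klf9, Asl and Bhmt. On values as deposited the changes of Hsp90ab1 (0.13 and 0.11), Actb (0.10), Tuba1b (0.057) and Arf4 (0.10) turned positive, as did those not called of Alb (0.52), Cyp2e1 (0.54), Acly (0.048), Scd (0.45), Fasn (0.35), Ghr (0.39), Aldh2 (0.50), Hmox1 (0.21), Srebf1 (0.29) and Ddit3 (0.21). List medians lower than 0 moved with it, that of the proteasome to 0.36, below the median of all. Afp turned to -0.00909 with median centring and -0.0305 with array weights. Without 1 array the uncalled changes near 0 also changed sign: Alb ran from -0.053 to 0.00047, Cyp2e1 from -0.13 to 0.0016, Igf1 from -0.011 to 0.20, Afp from -0.31 to 0.27 and Ddit3 from -0.93 to 0.067. Probe sets near background, such as Nr1d1 M25804_at, Igfbp2 and Emp1, give bounds only.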

Other observations

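Several called probe sets name no gene or several genes in the array's annotation, and are given by their identifiers. The probe set rc_AI176456_at measured 493.7, 327.4 and 3447 in TEN-220 against 23432 to 32340 in EtOH-160, a change of 5.10. M11794cds#2_f_at and rc_AI102562_at behaved alike in that TEN-220 replicate 3 was the highest of its group in each, with changes of 3.19 and 3.29. X53588_at fell by 2.56, and TEN-220 replicate 1, at 2584, stood above the other control arrays.

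Other named genes were called outside the naming rule and were chosen after their values were seen. Egfr, the epidermal growth factor receptor, measured 264, 267 and 287 in TEN-220 and 500, 505, 485 and 415 in EtOH-160, a change of 0.80 (adjusted p = 0.0144). Il6r, the interleukin 6 receptor, rose by 0.91 (adjusted p = 0.0463), and Ctsl, the lysosomal protease cathepsin L, by 0.73 (adjusted p = 0.0076) and 0.74 (adjusted p = 0.0129). Atp1b1, the beta subunit of the sodium pump, rose by 1.41 (adjusted p = 0.00366), from 113 to 145 in TEN-220 up to 288 to 439 in EtOH-160. Gch1, which starts tetrahydrobiopterin synthesis, rose by 0.76 (adjusted p = 0.0404), and Dao, D-amino acid oxidase, by 1.63 (adjusted p = 0.00382).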
